A study of Mus musculus with 23 samples.

Results

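Human alpha1-antitrypsin (AAT) was given to mice with lung inflammation as 3 preparations, native (nAAT), oxidized (oxAAT) and recombinant (recAAT), and the genes described here are those that moved the same way with each of them. All 15 libraries from mice given AAT after inhaled lipopolysaccharide (LPS, a bacterial cell wall component) were set against the 5 LPS libraries without AAT, which makes 20 of the 23 libraries analysed. The labels give 5 libraries each for LPS+nAAT (numbered 4101 to 4105), LPS+oxAAT (5101 to 5105) and LPS+recAAT (6101 to 6105), 5 for LPS alone (1101 to 1105) and 3 for clean air (2101, 2102 and 2105). All mice were male Balb/c. They inhaled LPS aerosol at 0.21 mg/ml, or clean air, for 10 min on each of 3 days. AAT at 4 mg/kg, or saline in the LPS and air mice, went into the peritoneum 1 h after every exposure, and lungs were collected 6 h after the final dose. Per the labels' protocol RNA came from 5 mice per group. Mice given the C-36 peptide of AAT were not analysed here.

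AAT is a plasma serpin that inactivates neutrophil elastase, and oxidation of a methionine in its reactive loop weakens that inhibition. LPS acts through Toll-like receptor signalling and NF-kB, which switch on cytokines, chemokines and acute phase genes. The same lungs also run programmes that brake inflammation: zinc finger transcription factors of the Krüppel-like family, RNA-binding proteins that destabilise cytokine mRNAs, targets of glucocorticoid hormone, and clock repressors whose levels follow the time of day.

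Libraries held 14.8 to 47.9 M counts assigned to genes (AAT 14.8 to 47.9 M, LPS 19.7 to 33.8 M). Lung tissue was recognisable in all of them by high CPM (counts per M counts, scaled by TMM) of surfactant protein C (Sftpc, 11600 to 16500 with AAT, 12300 to 17000 with LPS) and of the club cell protein Scgb1a1 (22300 to 37300 with AAT, 21000 to 43800 with LPS). Batches are not named by the labels, but the libraries form a first and a second set. The first set holds the 5 LPS+nAAT libraries, LPS+oxAAT libraries 5101 and 5102, the 5 LPS libraries and the 3 air libraries, 15 in all. The second set holds LPS+oxAAT libraries 5103 to 5105 and the 5 LPS+recAAT libraries, 8 in all, with no LPS library. The sets differ in reads on the light-strand mitochondrial gene mt-Nd6, which came to 3.39 to 4.5% of mt-Nd5 counts in the second set and 0.34 to 1.14% in the first. For LPS+recAAT the effect of AAT and the set therefore cannot be told apart, and the common genes are also given within the first set, over its 7 AAT and 5 LPS libraries. With set as a term and group held fixed, 93 of 17148 genes (0.542%) differed between sets by edgeR, and 2946 had an unadjusted p under 0.05. That term rests on LPS+oxAAT, the only group in both sets, with 2 and 3 libraries, so a low count does not mean a small set effect.

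Of 17148 genes tested, 28 passed an adjusted p of 0.05 in the same direction with each preparation against LPS (edgeR's quasi-likelihood test, Benjamini-Hochberg adjustment), 23 higher (0.134% of genes tested) and 5 lower (0.0292%). Single preparations gave 102 calls for LPS+nAAT (0.595%), 808 for LPS+oxAAT (4.71%) and 1456 for LPS+recAAT (8.49%). The 3 comparisons share the same 5 LPS libraries, so a gene called in each was not observed 3 times independently. A same sign in each comparison, with no test, was found for 11095 genes (64.7%). Of the 28, 15 did not overlap in CPM between the 15 AAT and 5 LPS libraries, 12 higher and 3 lower (Csrnp1 and Ppp1r10 among them), where 0.204% of genes did so in each direction. Nothing is read from these shares, since the same contrast chose the genes. The genes that rose included the transcription factors Klf10, Klf11, Bhlhe41 and Zbtb16, the cell cycle gene Ccna2 and the leukocyte surface genes Cd200r1, C3ar1, Cd53 and Olr1. The genes that fell included Csrnp1, Zfp36, Klf2 and Ppp1r10. Within the first set 7 of the 28 passed the test on the mean of LPS+nAAT and LPS+oxAAT (Klf10, Klf11 and Bhlhe41 higher, and Csrnp1, Zfp36 and Klf2 among those lower), where 0.134% of 17179 genes passed (0.0524% higher, 0.0815% lower). DESeq2 called 19 of the 28 there and limma-voom 6, which included Zbtb16. All 28 kept their sign there with an unadjusted p under 0.05. That check is not independent, since it uses 12 of the same 20 libraries. The count of 28 leaned on single libraries: it was 4 to 9 without LPS library 1101, 1102 or 1104, 45 without 1103, 61 without 1105, and 7 to 18 without LPS+nAAT library 4101, 4103, 4104 or 4105, LPS+oxAAT library 5103 or 5104 or LPS+recAAT library 6104. Klf10 and Klf11 were among 3 genes that stayed common without any one of the 20 libraries, and the other 25 genes stayed common in 3 (Ppp1r10) to 18 (C3ar1 and Bhlhe41) of the 20 fits. No gene was common with set as a term, where recAAT alone gave 0 calls (edgeR, with 1261 genes at an unadjusted p under 0.05 and 18 called by DESeq2). The shift from the first to the second set had the same sign as the AAT change for 25 of the 28. Of these shifts edgeR called 0, with 10 of the 28 at an unadjusted p under 0.05, and DESeq2 called 1 (Rnf13). In whole lung RNA, a change in the number of cells of a type cannot be told apart from a change in RNA per cell.

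**Figure D1:**
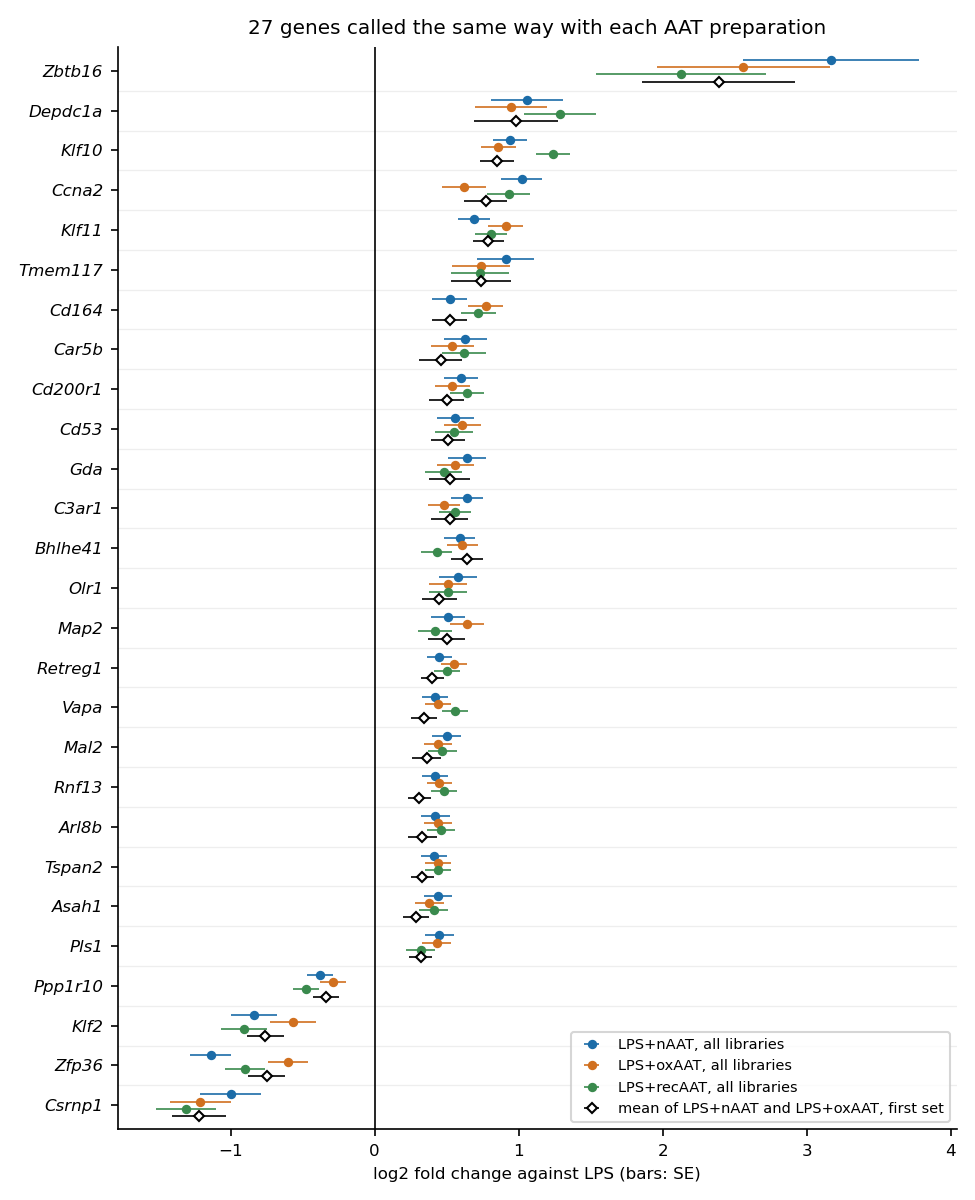
Log2 fold change against LPS of 27 of the 28 genes called the same way with each AAT preparation, one row per gene, with bars for the SE. Filled circles are LPS+nAAT, LPS+oxAAT and LPS+recAAT over all libraries, and open diamonds are the mean of LPS+nAAT and LPS+oxAAT in the first set: Zbtb16 lies farthest to the right (2.13 to 3.17 over all libraries) and Csrnp1 has the lowest mean (−1.17).

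The promoters of Klf11, Bhlhe41, Csrnp1, Zfp36 and Klf2 are shown because these regulators passed the test both over all libraries and within the first set. Klf10 passed both too but had no matched RefSeq window, so its promoter is not shown. Each run is the 250 bases before the RefSeq transcription start (build GRCm38.p6), 5′ to 3′ on the gene's own strand, in lower case. Capitals mark the E-box CACGTG in Klf11 (chr12:24651121-24651370, plus strand) and Bhlhe41 (chr6:145865421-145865670, minus strand). They mark TGACG, the core of the cyclic AMP response element, or its reverse complement CGTCA in Csrnp1 (chr9:119984743-119984992, minus strand) and Klf2 (chr8:72318812-72319061, plus strand), and a CArG box in Zfp36 (chr7:28379229-28379478, minus strand).
Klf11: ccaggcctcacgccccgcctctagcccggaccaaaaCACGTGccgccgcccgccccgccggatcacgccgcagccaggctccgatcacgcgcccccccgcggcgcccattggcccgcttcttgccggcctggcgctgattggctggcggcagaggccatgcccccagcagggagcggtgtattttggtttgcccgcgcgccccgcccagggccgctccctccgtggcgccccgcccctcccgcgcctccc
Bhlhe41: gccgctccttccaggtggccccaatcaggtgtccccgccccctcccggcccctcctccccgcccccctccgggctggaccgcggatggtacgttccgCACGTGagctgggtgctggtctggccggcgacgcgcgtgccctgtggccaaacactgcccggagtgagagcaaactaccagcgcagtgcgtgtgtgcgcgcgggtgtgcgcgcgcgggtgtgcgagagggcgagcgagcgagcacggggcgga
Csrnp1: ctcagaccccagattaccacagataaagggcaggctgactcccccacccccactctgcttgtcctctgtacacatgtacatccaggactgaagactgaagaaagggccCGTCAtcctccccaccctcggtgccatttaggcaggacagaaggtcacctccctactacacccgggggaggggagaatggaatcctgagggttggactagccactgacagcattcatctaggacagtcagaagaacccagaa
Zfp36: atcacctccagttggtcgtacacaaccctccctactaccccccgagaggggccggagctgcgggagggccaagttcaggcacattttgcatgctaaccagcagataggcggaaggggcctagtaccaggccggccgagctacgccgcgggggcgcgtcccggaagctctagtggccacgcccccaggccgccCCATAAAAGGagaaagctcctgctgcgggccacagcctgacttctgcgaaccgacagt
Klf2: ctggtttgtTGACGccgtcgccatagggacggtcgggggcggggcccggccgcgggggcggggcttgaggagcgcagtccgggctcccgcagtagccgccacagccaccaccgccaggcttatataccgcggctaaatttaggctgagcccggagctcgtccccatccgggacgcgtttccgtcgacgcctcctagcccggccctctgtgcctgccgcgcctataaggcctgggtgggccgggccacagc
RefSeq windows were matched for 20 of the 28 genes, 16 higher and 4 lower, and each was searched from 250 bases before to 50 bases after the start on both strands. The E-box was in 4 of the 16 genes that rose (Klf11, Bhlhe41, Cd164 and Vapa) and in 0 of the 4 that fell, against 7.15% of 32851 RefSeq windows. TGACG, which is also part of the full element TGACGTCA, was in 6 of 16 and 2 of 4, against 20.8% of windows. The full element was in 1 gene (1.79% of windows) and the CArG box in 1 (1.63%). The glucocorticoid response element (0.0396% of windows) and the kappaB motif (4.51%) were in none of the 20 windows. These matches describe letters in the window and are not evidence of binding. The RefSeq start of Zfp36 lies 1025 bases from the GENCODE start, inside the GENCODE gene, while those of the other 4 lie 29 to 138 bases away.

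Klf10 and Klf11, zinc finger repressors first known as genes induced by TGF-beta, rose with every preparation. Klf10 (ENSMUSG00000037465, chr15:38291463-38300706, minus strand, GENCODE on GRCm38) had 60.6, 55.9, 53.3, 54.1 and 53.4 CPM with LPS+nAAT, 47.8, 51.8, 62.5, 52.0 and 48.6 CPM with LPS+oxAAT and 67.8, 84.2, 63.1, 66.6 and 59.8 CPM with LPS+recAAT, against 30.3, 20.9, 29.1, 25.9 and 38.5 CPM with LPS. No AAT library was as low as the highest LPS library. The means were 58.8 ± 9.38 CPM with AAT (SD, n = 15), 29.0 ± 6.47 with LPS (n = 5) and 32.5 ± 5.14 in air (n = 3), so that AAT lungs also lay above air lungs. The log2 fold change against LPS was 0.94 ± 0.12 (SE, adjusted p = 0.000606, edgeR) with nAAT, 0.86 ± 0.12 (0.000767) with oxAAT and 1.24 ± 0.12 (7.14e-06) with recAAT. Within the first set it was 0.85 ± 0.12 (adjusted p = 0.0042), from 0.93 with nAAT (0.00476) and 0.78 with oxAAT, which alone did not pass there (0.108).

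Klf11 (ENSMUSG00000020653, chr12:24651274-24662789, plus strand) had 52.7, 66.6, 52.9, 59.1 and 57.9 CPM with LPS+nAAT, 61.6, 71.4, 75.7, 69.8 and 58.6 CPM with LPS+oxAAT and 65.8, 77.7, 59.6, 59.7 and 50.3 CPM with LPS+recAAT. LPS libraries had 40.8, 31.5, 41.7, 36.2 and 28.8 CPM, all under the lowest AAT library, and air libraries had 59.2, 62.3 and 50.5 CPM. Against LPS the log2 fold change was 0.69 ± 0.11 with nAAT (adjusted p = 0.00773, edgeR), 0.91 ± 0.12 with oxAAT (0.000254) and 0.81 ± 0.11 with recAAT (0.000338). LPS itself lowered Klf11 relative to air (−0.68 ± 0.13, adjusted p = 0.0019), a comparison that shares the LPS libraries and called 4.39% of genes. AAT lungs averaged 62.6 ± 8.33 CPM (n = 15), LPS lungs 35.8 ± 5.62 (n = 5) and air lungs 57.3 ± 6.16 (n = 3). In the first set Klf11 passed with each preparation alone, at 0.68 with nAAT (adjusted p = 0.0145) and 0.89 with oxAAT (0.0141).

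Klf2, a transcription factor that endothelial cells raise under flow and that keeps them quiescent, moved the other way. It had 67.7, 54.5, 61.1, 43.0 and 68.6 CPM with LPS+nAAT, 53.3, 79.9, 56.9, 61.1 and 104 CPM with LPS+oxAAT and 44.8, 51.3, 65.8, 65.6 and 54.1 CPM with LPS+recAAT, against 110, 117, 110, 98.4 and 92 CPM with LPS. Only LPS+oxAAT library 5105 reached the LPS range. It changed by −0.84 ± 0.16 with nAAT (adjusted p = 0.0148, edgeR), −0.57 ± 0.16 with oxAAT (0.0353) and −0.91 ± 0.16 with recAAT (0.00111), and −0.76 ± 0.13 (0.0161) in the first set. The first-set call was lost without LPS library 1103 (adjusted p = 0.0588) or LPS+oxAAT library 5101 (0.138). Air lungs held more Klf2 than LPS lungs (149 ± 20.4 CPM, n = 3, against 105 ± 10.1 CPM, n = 5, with LPS), a difference that did not pass the test (LPS against air −0.50, adjusted p = 0.113). Endothelial identity genes summed to 4540 to 5180 CPM with LPS+nAAT, 4670 to 5320 with LPS+oxAAT, 4220 to 4850 with LPS+recAAT and 4640 to 5920 with LPS. Of 15 such genes, Tie1 (−0.25) and Cldn5 (−0.28) fell on the mean of the 3 preparations and none rose, where 2.11% of all genes fell. The list had a median of −0.20 with nAAT (0 of 15 positive), −0.02 with oxAAT (6 of 15) and −0.20 with recAAT (3 of 15), and −0.10 on the first-set mean. Their part in the Klf2 result was not tested. Over all 12 members of the Krüppel-like family that were tested, Klf10 and Klf11 were called higher and Klf2 lower with every preparation, and the median log2 fold change was 0.10, 0.20 and 0.16 with nAAT, oxAAT and recAAT, against 0.001, −0.013 and −0.014 for all genes tested. In the first set the median was 0.09 with nAAT (8 of 12 positive) but −0.14 with oxAAT (3 of 12). On their mean it was −0.05 (5 of 12 positive, with Klf4 also lower). The median was 0 on the mean of the 3 preparations with a curve in GC content removed.

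Bhlhe41, a repressor of the circadian clock that binds E-boxes, rose with each preparation. It had 35.7, 36.4, 32.6, 38.4 and 32.0 CPM with LPS+nAAT, 33.5, 42.5, 42.4, 30.5 and 28.9 CPM with LPS+oxAAT and 31.8, 33.0, 31.4, 29.7 and 30.7 CPM with LPS+recAAT. LPS libraries had 28.2, 23.4, 22.5, 17.3 and 25.2 CPM and air libraries 23, 26.2 and 24.8 CPM, and no AAT library was as low as an LPS or air library. On the log2 scale it rose by 0.59 ± 0.11 with nAAT (adjusted p = 0.0173, edgeR), 0.61 ± 0.11 with oxAAT (0.00492) and 0.43 ± 0.11 with recAAT (0.0201), and 0.64 ± 0.11 in the first set (0.018). The first-set call was lost without LPS library 1103 (adjusted p = 0.0755) or LPS+oxAAT library 5102 (0.219). Bhlhe41 lies at chr6:145858243-145865558 on the minus strand and shares 1280 exonic bases with a gene on the opposite strand. Reads of the pair can be told apart only if counting used strand, and that setting is not stated in these sources.

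The other clock genes did not move as one. Of 20 tested, 4 rose on the mean of the 3 preparations (Bhlhe41, Bhlhe40, Nr1d2 and Rora) and 1 fell (Per1), with a median of 0.09 against −0.01 for all genes tested, where 7.83% of genes were called (5.73% higher, 2.11% lower). The Bhlhe40 call was lost without LPS library 1101, 1102, 1103 or 1104 (adjusted p up to 0.122). Nr1d2 and Rora were not followed when libraries were left out. Per1, a clock repressor that is also switched on by glucocorticoids and cyclic AMP, had 157, 178, 154, 144 and 168 CPM with LPS+nAAT, 88.5, 77.1, 113, 90.3 and 160 CPM with LPS+oxAAT and 90.5, 155, 170, 158 and 92.1 CPM with LPS+recAAT, against 207, 261, 249, 281 and 202 CPM with LPS. All 15 AAT libraries were below all 5 LPS libraries. It was called with oxAAT (−1.18, adjusted p = 0.00161, edgeR) and recAAT (−0.85, 0.00567) but not with nAAT (−0.58, 0.133) over all libraries, so it is not among the 28. Within the first set it passed with both, at −0.59 with nAAT (adjusted p = 0.0471) and −1.54 with oxAAT (0.000354). The heme receptor Nr1d1, which represses Bmal1, took opposite directions: it was higher than LPS with oxAAT (0.60, adjusted p = 0.0298), had a value of 0.58 with nAAT (0.092), and was lower with recAAT (−0.98, 0.000848), while its first-set mean of 0.71 did not pass (0.0932). Within the second set recAAT was below oxAAT by a log2 difference of −1.38 ± 0.12 (adjusted p = 0.000805).

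Zbtb16 (PLZF), a zinc finger factor induced by glucocorticoids in several cell types, had the largest fold changes of the 28 and the widest spread. It had 125, 259, 226, 226 and 195 CPM with LPS+nAAT, 102, 39.3, 223, 158 and 155 CPM with LPS+oxAAT and 93.9, 218, 43.0, 116 and 30.2 CPM with LPS+recAAT. LPS libraries had 30.0, 5.46, 10.5, 13.8 and 54.7 CPM, and air libraries 10.4, 8.5 and 7.86 CPM. LPS+oxAAT library 5102 and LPS+recAAT libraries 6103 and 6105 fell inside the LPS range, whose top was set by LPS library 1105. The log2 fold change was 3.17 ± 0.61 with nAAT (adjusted p = 0.0262, edgeR), 2.56 ± 0.60 with oxAAT (0.0204) and 2.13 ± 0.59 with recAAT (0.0315). Its first-set mean change of 2.39 did not pass by edgeR (adjusted p = 0.232), though DESeq2 (0.00152) and limma-voom (0.00842) called it. Among 22 glucocorticoid-responsive genes tested, 3 rose on the mean of the 3 preparations (Zbtb16, Fkbp5 and Hif3a) and 6 fell (Per1, Dusp1, Cebpd, Errfi1, Ddit4 and Nfkbia), where 5.73% and 2.11% of all genes did, with a median of −0.10 against −0.01 for all genes tested. Within the first set 1 rose and 3 fell (median −0.12). Fkbp5, a co-chaperone that dampens the glucocorticoid receptor, ranged from 24.6 to 90.9 CPM with AAT and from 18.4 to 30.6 CPM with LPS, a mean log2 fold change of 1.14 ± 0.23 (adjusted p = 0.00533) that was not called with oxAAT alone (0.74, 0.116). Tsc22d3 (GILZ), another target of the hormone, was lower in the first set (−0.66, adjusted p = 0.0274) and had −0.13, −0.76 and −0.34 with nAAT, oxAAT and recAAT over all libraries, of which only the oxAAT value passed (0.0405).

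**Figure D2:**
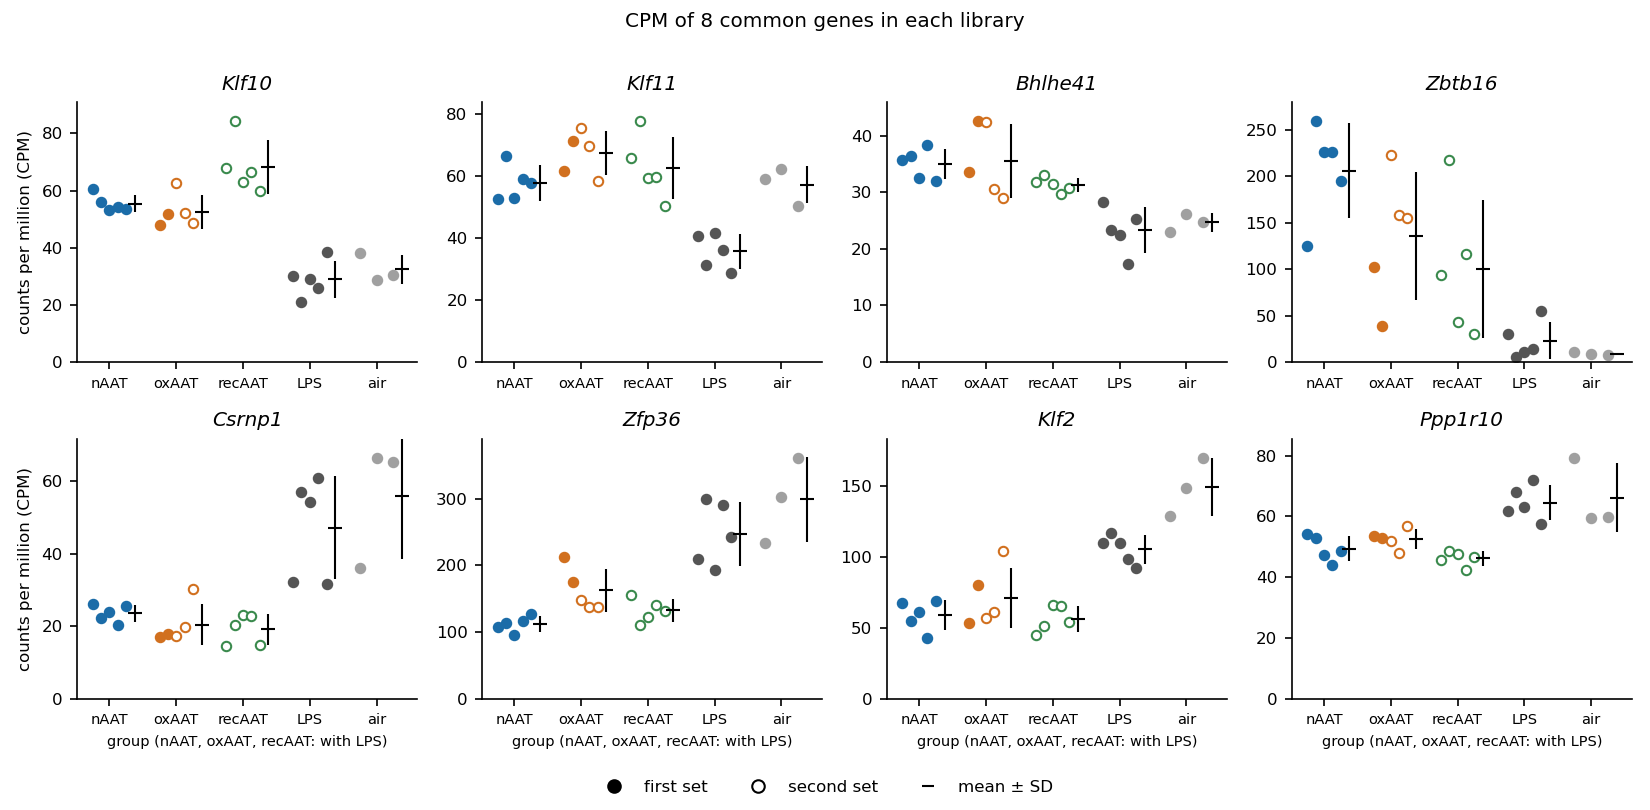
CPM of 8 of the common genes in every library, by group, with filled circles for the first library set, open circles for the second, and a bar for the mean ± SD of the group (n = 5, air n = 3). The AAT and LPS points do not overlap for Klf10, Klf11, Bhlhe41, Csrnp1 and Ppp1r10, while Zbtb16, Zfp36 and Klf2 each have AAT libraries inside the LPS range.

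Csrnp1, a nuclear protein of the immediate early class, had the lowest mean log2 fold change of the 28 (−1.17 ± 0.16), although Zfp36 fell further with nAAT. It had 26.0, 22.2, 23.8, 20.4 and 25.5 CPM with LPS+nAAT, 17.1, 17.9, 17.2, 19.9 and 30.2 CPM with LPS+oxAAT and 14.4, 20.4, 23.2, 22.9 and 14.9 CPM with LPS+recAAT, against 32.1, 57.1, 54.3, 60.9 and 31.7 CPM with LPS. The groups did not overlap, though LPS libraries 1101 and 1105 lay close to LPS+oxAAT library 5105. The log2 fold change was −1.0 ± 0.21 with nAAT (adjusted p = 0.0278, edgeR), −1.21 ± 0.21 with oxAAT (0.00311) and −1.31 ± 0.21 with recAAT (0.000832), and −1.22 ± 0.19 in the first set (0.0108). That call was lost without LPS+oxAAT library 5101 (adjusted p = 0.0938) or 5102 (0.131). Air lungs had 36.0, 66.5 and 65.4 CPM, close to LPS lungs (LPS against air −0.25, adjusted p = 0.633). Of 19 immediate early genes tested (21 on the list), 5 fell on the mean of the 3 preparations and none rose (2.11% of all genes fell), with a median of −0.10. Beside Csrnp1 these were Myc (−0.51 ± 0.10, adjusted p = 0.00345), Fos (−0.39 ± 0.11, 0.0347), Btg2 (−0.31 ± 0.06, 0.003) and Jun (−0.23 ± 0.07, 0.0382). The Jun call was lost on leaving out any one of 11 single libraries (adjusted p up to 0.105), and in the first set Csrnp1 was the only one of the 19 called. Fos was not followed when libraries were left out.

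Zfp36 (tristetraprolin), an RNA-binding protein that speeds the decay of AU-rich mRNAs such as that of TNF, also fell. It had 108, 113, 95.8, 116 and 127 CPM with LPS+nAAT, 213, 175, 148, 138 and 138 CPM with LPS+oxAAT and 156, 111, 122, 140 and 132 CPM with LPS+recAAT, against 209, 300, 193, 290 and 243 CPM with LPS. Of the AAT libraries, LPS+oxAAT library 5101 alone reached the LPS range, and air lungs had 233, 302 and 361 CPM. Log2 fold changes were −1.14 ± 0.14 with nAAT (adjusted p = 0.000349, edgeR), −0.60 ± 0.14 with oxAAT (0.015) and −0.90 ± 0.14 with recAAT (0.000665). The first-set mean was −0.75 ± 0.13 (0.0206), carried by nAAT (−1.15, 0.000898), since the LPS+oxAAT pair gave −0.35 and did not pass (0.999). Leaving out LPS library 1102 or 1104, or LPS+oxAAT library 5101 or 5102, ended that call (adjusted p = 0.0612, 0.087, 0.0589 and 0.273). Its relatives moved the opposite way over all libraries: on the mean of the 3 preparations Zfp36l1 rose by 0.47 (adjusted p = 0.00345) and Zfp36l2 by 0.23 (0.0347), though the Zfp36l2 call was lost without any one of 5 single libraries (up to 0.152), and in the first set neither passed (0.33, adjusted p = 0.427, and 0.27, 0.39). Of 16 mRNA decay and feedback genes, 2 rose and 4 fell (Zfp36, Dusp1, Nfkbia and Tnfaip3), where 5.73% and 2.11% of all genes did, with a median of −0.05. The Tnfaip3 call (−0.19, 0.0374) was lost without any one of 6 single libraries (up to 0.159). Zfp36l1 was not followed when libraries were left out. Csrnp1 and Zfp36 share 224 and 125 exonic bases with genes on the opposite strand, as Ccna2 does 510 with Exosc9, Rnf13 322, Map2 124 and Tspan2 88.

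Ppp1r10 (PNUTS), a nuclear subunit that directs protein phosphatase 1, fell by less than the genes above, at −0.38, −0.29 and −0.48 with nAAT, oxAAT and recAAT (adjusted p = 0.0359, 0.0459 and 0.00129, edgeR). It averaged 49.4 ± 4.1 CPM with AAT (n = 15) and 64.5 ± 5.63 CPM with LPS (n = 5) without overlap, and did not pass in the first set (−0.34, 0.296).

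Ccna2 (cyclin A2), which drives S phase and entry into mitosis, rose with every preparation. It had 13.8, 16.5, 16.1, 13.4 and 14.6 CPM with LPS+nAAT, 9.4, 11.7, 9.87, 11.7 and 13.7 CPM with LPS+oxAAT and 13.5, 13.5, 15.6, 12.2 and 15.3 CPM with LPS+recAAT. LPS libraries had 5.93, 6.81, 9.6, 5.51 and 8.85 CPM, with LPS library 1103 above LPS+oxAAT library 5101, and air libraries had 4.83, 3.66 and 3.33 CPM. The log2 fold change was 1.02 ± 0.14 with nAAT (adjusted p = 0.00138, edgeR), 0.62 ± 0.15 with oxAAT (0.0157) and 0.93 ± 0.15 with recAAT (0.000665). The first-set mean of 0.77 ± 0.15 did not pass by edgeR (0.0658) but did by DESeq2 (0.000694). LPS alone raised Ccna2 over air (0.90, adjusted p = 0.00279), so AAT lungs lay farther from air than LPS lungs did. Of 24 mitosis genes 14 were called higher with nAAT, 1 with oxAAT (Ccna2) and 6 with recAAT (0.449%, 3.94% and 6.47% of all genes were), and none lower, with medians of 0.63, 0.16 and 0.33. On the mean of the 3 preparations 10 rose, where 5.73% of all genes did. Among them were Ccnb1 (0.78 ± 0.14, adjusted p = 0.00302), Prc1 (0.51, 0.0133) and Cenpf (0.40, 0.0371). The Prc1 call was lost without LPS library 1101, 1102 or 1104 (up to 0.0709), and the Cenpf call without any one of 8 libraries (up to 0.137). First-set medians were 0.63 with nAAT (24 of 24 positive, Ccna2 and Ccnb1 called) and 0.07 with oxAAT (19 of 24 positive, 0 called). On their mean all 24 were positive in the first set (median 0.35) but 0 were called by edgeR, with 15 at an unadjusted p under 0.05, 1 called by DESeq2 and 0 by limma-voom. Of 24 DNA replication genes 4 rose on the mean (Rrm2, Pclaf, Ccne2 and Uhrf1), beside the same 5.73% of all genes, with a median of 0.14. In the first set 0 of the 24 were called by any of the 3 tools, with 6 at an unadjusted p under 0.05.

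Surface proteins of leukocytes were among the remaining genes that rose. They were Cd200r1, an inhibitory receptor of myeloid cells (0.60, 0.54 and 0.64 with nAAT, oxAAT and recAAT), C3ar1, the receptor for the complement fragment C3a (0.64, 0.48 and 0.56), the tetraspanin Cd53 (0.56, 0.61 and 0.55) and Olr1, a receptor for oxidized lipoprotein (0.58, 0.51 and 0.51). Cd200r1 had 14.9 to 20.7 CPM with AAT, 9.06 to 14.4 CPM with LPS and 6.95 to 7.76 CPM in air. C3ar1 had 8.73 to 13.5 CPM with AAT, 6.51 to 8.03 CPM with LPS and 3.06 to 4.02 CPM in air. For both genes the ranges with AAT, with LPS and in air did not touch. Against air, LPS raised Cd200r1 by 0.67 (adjusted p = 0.0044, edgeR), C3ar1 by 1.03 (3.2e-05) and Olr1 by 0.73 (0.00426), again with shared LPS libraries. In the first set edgeR and limma-voom called 0 of these 4 (adjusted p = 0.231, 0.231, 0.196 and 0.28 by edgeR, all with an unadjusted p under 0.05) and DESeq2 called 3. With a curve in GC content removed the mean of the 3 preparations was 0.39 for Cd200r1 in place of 0.59, 0.31 for Olr1 in place of 0.53, and 0.31 for Cd53 in place of 0.57, where Cd53 did not pass (adjusted p = 0.0597).

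Markers of the leukocytes that carry these receptors were counted beside them. Alveolar macrophage markers summed to 1840 to 2280 CPM with LPS+nAAT, 1450 to 1860 with LPS+oxAAT, 1180 to 1890 with LPS+recAAT, 1450 to 1880 with LPS and 1090 to 1190 in air. On the mean of the 3 preparations 1 of 16 was called higher (Lpl, 0.44, adjusted p = 0.0184, edgeR), where 5.73% of all genes were, and none lower. Monocyte and recruited macrophage markers summed to 913 to 1180, 916 to 1080, 891 to 1110, 992 to 1140 and 740 to 860 CPM in the same order, with 0 of 16 called by edgeR and 2 at an unadjusted p under 0.05. Neutrophil markers summed to 491 to 946 CPM with LPS+nAAT, 405 to 534 with LPS+oxAAT, 411 to 647 with LPS+recAAT, 513 to 657 with LPS and 386 to 450 in air. Of 19 neutrophil markers, 0 were called on the mean by edgeR, DESeq2 or limma-voom and 3 had an unadjusted p under 0.05, with medians of 0.49, −0.22 and 0.00 with nAAT, oxAAT and recAAT. In 1 library each the granule genes Camp and Ngp had no count. The part of these cells in the receptor results was not tested. No B cell, T and NK cell, airway, heart muscle, liver or erythroid marker was called on the mean. B cell markers had a median of −0.24 there with 4 at an unadjusted p under 0.05, but in the first set −0.25 with nAAT (0 of 12 positive) and 0.31 with oxAAT (12 of 12 positive). Liver genes had medians of −1.0 with nAAT, 1.61 with oxAAT, where Alb was called (1.78, adjusted p = 0.0453), and −0.06 with recAAT (2.02 with oxAAT in the first set, none called there by edgeR), and heart muscle genes −0.69, 0.25 and −0.01. Alveolar type 1 markers had 1 call (Cav1, higher), fibroblast and matrix genes 1 (Aspn, higher), and alveolar type 2 markers 0 by edgeR, 5 at an unadjusted p under 0.05 and 2 higher by DESeq2.

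The other genes that rose were, in order of mean log2 fold change, Depdc1a, a mitotic gene (1.10), the multipass membrane protein Tmem117 (0.79), the sialomucin Cd164 (0.67), the mitochondrial carbonic anhydrase Car5b (0.60), guanine deaminase Gda (0.56), the microtubule-associated Map2 (0.52) and the endoplasmic reticulum turnover receptor Retreg1 (0.50). They continued with the reticulum tether Vapa (0.47), the transcytosis protein Mal2 (0.47), the endosomal ubiquitin ligase Rnf13 (0.45), the lysosomal GTPase Arl8b (0.44), the tetraspanin Tspan2 (0.43), the acid ceramidase Asah1 (0.41) and the actin bundler Pls1 (0.40). None of these 14 passed in the first set by edgeR or limma-voom, where Retreg1 came nearest (0.40 ± 0.08, adjusted p = 0.0658, edgeR), while DESeq2 called 7 of them. With the GC curve removed the mean of the 3 preparations no longer passed for Depdc1a (adjusted p = 0.131), Rnf13 (0.54), Tspan2 (0.0533) and Pls1 (0.139). Their log2 values were then 0.66, 0.08, 0.23 and 0.21, and those of Vapa, Mal2, Arl8b and Asah1, which still passed, were 0.29, 0.31, 0.29 and 0.26. LPS lowered Tmem117 (−0.95, adjusted p = 0.0114), Cd164 (−0.64, 0.00506), Mal2 (−0.52, 0.00929), Rnf13 (−0.51, 0.0044), Retreg1 (−0.49, 0.0044) and Tspan2 (−0.43, 0.0161) relative to air, while the AAT values above are against the same LPS libraries and positive.

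Within the first set, where all libraries share the set of the LPS lungs, 23 genes passed on the mean of LPS+nAAT and LPS+oxAAT, 9 higher and 14 lower. Beside the 7 shared with the 28, the largest were Tmem252, a small membrane protein, and Per1, both lower. Tmem252 had 33.3, 32.1, 36.7, 32.5 and 32.3 CPM with LPS+nAAT and 17.8 and 18.2 CPM with the first-set LPS+oxAAT libraries, against 50.6, 59.3, 72.5, 62.5 and 41.9 CPM with LPS, without overlap. Its first-set log2 fold change was −1.23 ± 0.12 (adjusted p = 0.000161, edgeR) and that of Per1 −1.07 ± 0.12 (0.000253). Insig1, a reticulum protein that holds back cholesterol synthesis, rose by 0.52 (0.00321), from 0.73 with oxAAT (0.00219) and 0.31 with nAAT, which alone did not pass (0.0778). It had 62.2 to 71.5 CPM with LPS+nAAT, 63.6 to 93.5 with LPS+oxAAT, 68.9 to 95.8 with LPS+recAAT, 50.5 to 60.4 with LPS and 90.1 to 101 in air, so that all AAT libraries lay above all LPS libraries. LPS lowered Insig1 against air by a log2 fold change of −0.81 (adjusted p = 3.9e-05). Of 15 cholesterol synthesis genes only Insig1 and Idi1 (0.50, 0.0206) rose on the mean of the 3 preparations, where 5.73% of all genes did, with a list median of −0.07. The Idi1 call was lost without LPS library 1101, 1102 or 1104 (up to 0.0977).

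Spry4 and Errfi1, feedback inhibitors of receptor tyrosine kinases and of the EGF receptor, fell on the first-set mean by −0.73 (adjusted p = 0.0042, edgeR) and −0.76 (0.0059). There Spry4 passed with nAAT (−0.78, 0.00476) but not with oxAAT (−0.69, 0.128). Errfi1 passed with oxAAT (−0.99, 0.016) but not with nAAT (−0.53, 0.0615). Spry4 had 18.4 to 34.6 CPM with AAT, 28.2 to 43.2 CPM with LPS and 50.6 to 55.1 CPM in air. Errfi1 averaged 117 ± 24.9 CPM with AAT (n = 15) and 195 ± 29.1 CPM with LPS (n = 5). Of 15 feedback and ligand genes of this pathway, 3 fell on the mean of the 3 preparations (Spry4, Errfi1 and the ligand Areg, −0.94 ± 0.23, adjusted p = 0.0127) and 2 rose (Spred1, 0.43, 0.0322, and Btc, 0.60, 0.0373). Of all genes 2.11% fell and 5.73% rose, and the list had a median of −0.05. First-set values of Areg (−0.87, adjusted p = 0.438), Spred1 (0.17, 0.756) and Btc (0.49, 0.573) did not pass. The calls of these 3 genes on the mean of the 3 preparations were not followed when libraries were left out. Klf4 (−0.63, 0.00617), the homeobox gene Irx1 (−0.87, 0.00947), Gata2 (−0.45, 0.0287) and Tsc22d3 also fell on the first-set mean, as did AA986860 (−0.43, 0.0357) and ENSMUSG00000029333, which has no symbol (−0.38, 0.0384). With nAAT alone Klf4 (−0.42, 0.0737), Irx1 (−0.51, 0.122), Gata2 (−0.26, 0.189) and Tsc22d3 (−0.15, 0.629) did not pass there. With the 2 oxAAT libraries they had −0.83 (0.0158), −1.22 (0.0158), −0.64 (0.035) and −1.18 (0.00695). Prdm1 (Blimp-1, 0.55, 0.0384), Rgs2 (0.54, 0.0343), Gpcpd1 (0.52, 0.0173), Bhlhe40 (0.39, 0.0434) and Fkbp5 (0.89 ± 0.17, 0.0388) rose on that mean. Fkbp5 passed there with nAAT (1.56, 0.000881) and not with oxAAT (0.21, 0.999).

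Leaving out each of the 12 first-set libraries in turn kept 7 of the 23 calls throughout, among them Klf10, Klf11, Insig1, Tmem252, Per1 and Spry4, with a highest adjusted p of 0.0435 for Spry4 (edgeR). Calls that rested on single libraries included Prdm1 and Bhlhe40, each kept in 1 of 12 fits (highest adjusted p 0.177 and 0.36), Fkbp5 in 3 (0.14), Rgs2 in 4 (0.273) and AA986860 in 4 (0.41). Klf11, Per1 and Tmem252 were among 4 genes called in the same direction with both LPS+nAAT and LPS+oxAAT in the first set, where 0.198% and 0.0757% of genes were called singly. With set as a term over all libraries, 9 genes passed on the mean of the 3 preparations (0.0525%), among them Klf10 (0.94, adjusted p = 0.00514), Klf11 (0.79, 0.00809) and Csrnp1 (−1.37, 0.0219).

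**Figure D3:**
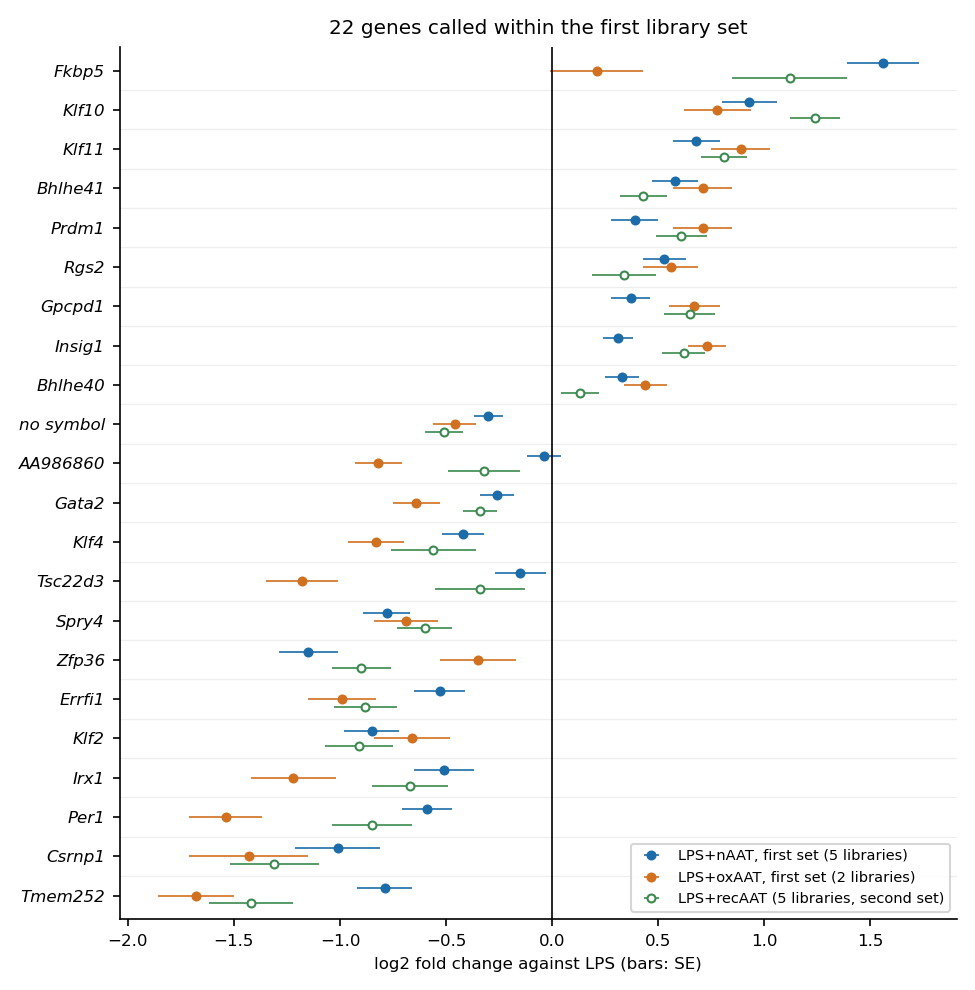
Log2 fold change against LPS of 22 of the 23 genes called within the first library set, with bars for the SE. Filled circles are LPS+nAAT (5 libraries) and LPS+oxAAT (2 libraries) of the first set and open circles are LPS+recAAT, whose 5 libraries are in the second set: Tmem252 lies farthest to the left (−0.79 with nAAT, −1.68 with oxAAT), and AA986860 lies near 0 with nAAT (−0.04) and at −0.82 with oxAAT.

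The preparations were compared with one another only within a set. For the 28 common genes, oxAAT minus nAAT in the first set ranged from −1.54 for Zbtb16 to 0.80 for Zfp36, with 0 called by edgeR (0.0116% of all genes were), 4 at an unadjusted p under 0.05, 1 called by DESeq2 (Zfp36) and 0 by limma-voom. RecAAT minus oxAAT in the second set ranged from −0.83 for Zbtb16 to 0.32 for Klf10, with 0 called by edgeR (0.0244% of all genes), DESeq2 or limma-voom and 5 at an unadjusted p under 0.05. Among these 28 genes edgeR thus called no difference between preparations, and DESeq2 called that of Zfp36 (0.80 ± 0.17 by edgeR). With 2 LPS+oxAAT libraries in the first set and 3 in the second the SE of such a difference ran from 0.11 for Retreg1 and Pls1 to 0.74 for Zbtb16 in the first set. RecAAT and nAAT share no set and were not compared.

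Inflammatory genes were set beside these changes. Of 19 cytokines and chemokines tested (20 on the list), 0 were called on the mean of the 3 preparations by edgeR, DESeq2 or limma-voom, and 0 had an unadjusted p under 0.05. Their median log2 fold change was −0.40 with nAAT, 0.13 with oxAAT and 0.27 with recAAT. Cxcl2, a neutrophil chemoattractant, fell with nAAT (−1.28, adjusted p = 0.0186) but had 0.04 with oxAAT and 0.20 with recAAT, and Cxcl5, another, rose with recAAT (1.71, 0.00289). Of 20 acute phase and antimicrobial genes 0 were called on the mean by any of the 3 tools, with 1 at an unadjusted p under 0.05. Among them Saa3 averaged 240 ± 56.5 CPM with AAT (n = 15), 286 ± 88.6 CPM with LPS (n = 5) and 4.81 CPM in air. Of 18 NF-kB pathway genes 5 fell and none rose on the mean, where 2.11% of all genes were called lower: Nfkbia, the inhibitor of the pathway (−0.40 ± 0.08, adjusted p = 0.00518), Relb (−0.44, 0.0257), Rela (−0.35, 0.013), Nfkb2 (−0.22, 0.0406) and Tnfaip3. Each single preparation called 1 of the 18 lower, Tnfaip3 with nAAT, Nfkbia with oxAAT and Rela with recAAT. Of all genes 0.146%, 0.77% and 2.02% were called lower there. No gene of this list was thus common to the 3 preparations. The Relb call was lost without LPS library 1101, 1102 or 1104 (up to 0.141) and the Nfkb2 call without any one of 12 single libraries (up to 0.133). Rela was not followed when libraries were left out. None passed in the first set by edgeR (0 of 18), 5 had an unadjusted p under 0.05, 1 was called by DESeq2 and 0 by limma-voom. Of 20 interferon-stimulated genes 1 rose on the mean (Ifit2), where 5.73% of all genes did. Of 14 heat shock genes 0 were called on the mean by edgeR, DESeq2 or limma-voom, with 1 at an unadjusted p under 0.05. In the first set 13 of the 14 were negative with oxAAT, of which DESeq2 called 2 lower and edgeR 0 (2 at an unadjusted p under 0.05). LPS+oxAAT library 5105, of the second set, stood apart in these genes, with 1290 CPM of Hspa8 against 367 to 423 CPM in the other LPS+oxAAT libraries, and 187 CPM of Hsph1 against 26 to 37.4 CPM.

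**Figure D4:**
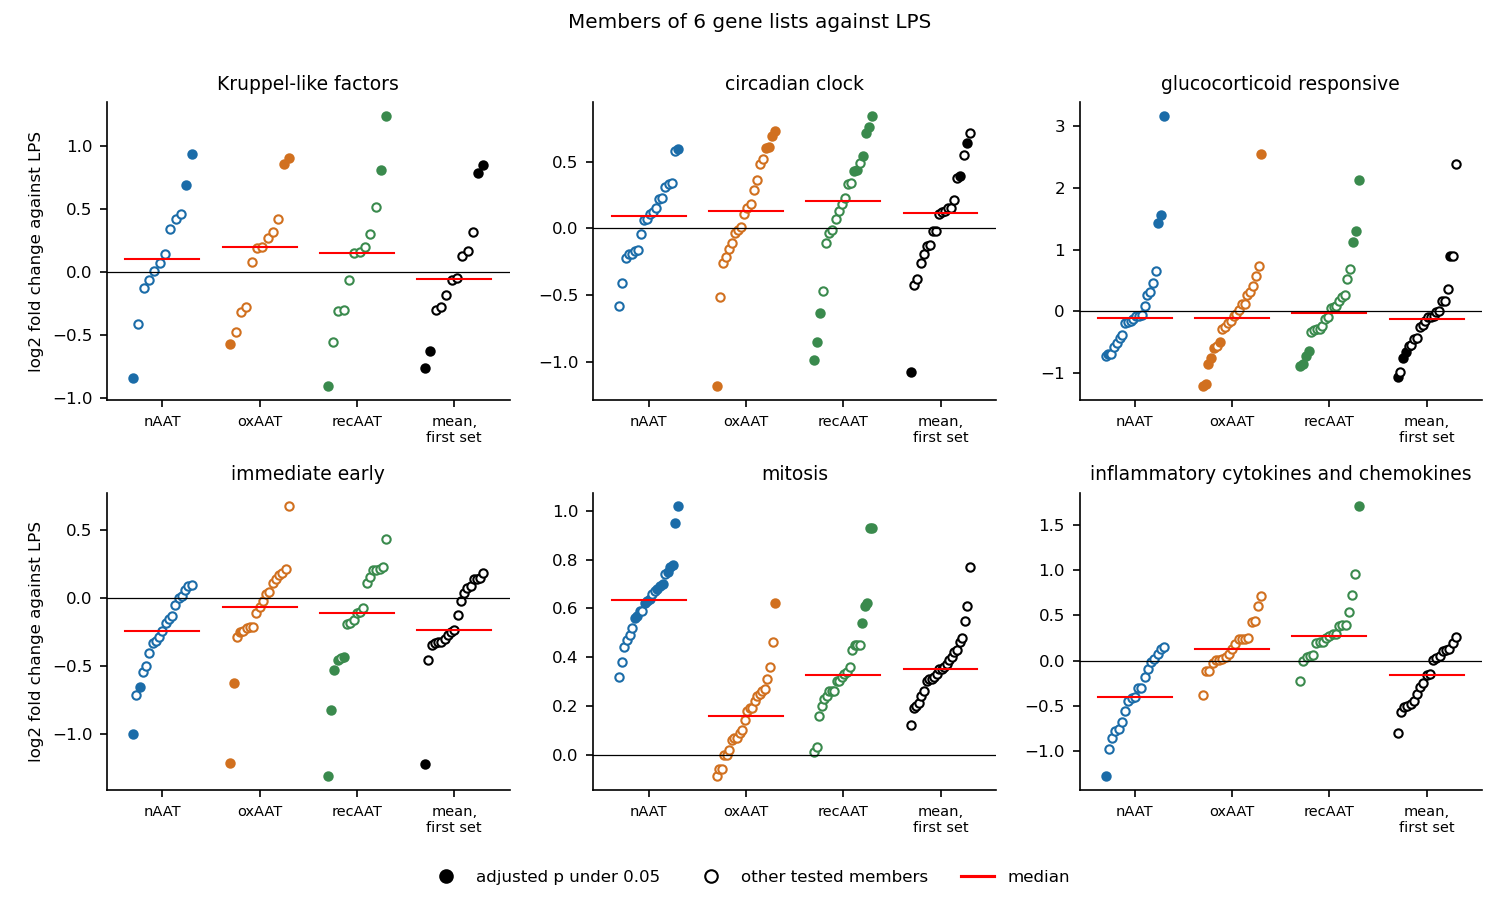
Log2 fold change against LPS of every tested member of 6 gene lists, one panel per list, for LPS+nAAT, LPS+oxAAT, LPS+recAAT and the first-set mean, with filled circles for an adjusted p under 0.05 and a red line for the median. Mitosis genes lie mostly above 0 in every column, with 14, 1, 6 and 0 filled, while cytokines lie mostly below 0 with nAAT (median −0.40) and mostly above it with recAAT (median 0.27).

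Fold changes followed the GC content of the transcripts with every preparation. Genes were split into 10 equal bins by GC content. In the lowest bin (median 39.7%) the median log2 fold change was 0.176 with nAAT, 0.316 with oxAAT and 0.368 with recAAT, and in the highest bin (59.6%) it was −0.157, −0.164 and −0.139. Across genes, which are not independent, GC content and fold change correlated at r = −0.33, −0.38 and −0.36, and at −0.29 for the first-set mean. The common genes that rose had a median GC content of 43.1% and those that fell 54.7%, against 49.8% for all tested genes. With a curve in GC content removed, 420 genes passed on the mean of the 3 preparations (2.47%) in place of 1343 (7.83%), 245 of them higher (1.44%) and 175 lower (1.03%) in place of 982 and 361. Of the 28, 23 still passed on the mean, but 10 still passed with each preparation, among them Klf10, Klf11, Bhlhe41, Ccna2 and Zfp36. Zbtb16, Klf2, Csrnp1, Ppp1r10, C3ar1 and Cd200r1 were among the 18 that did not. The same correction in the first set gave 23 called genes (0.135%), 12 higher and 11 lower, of which 17 were among the 23 called without it. Gpcpd1 (adjusted p = 0.523, edgeR), Rgs2 (0.121), AA986860 (0.0624), Klf4 (0.0624) and Gata2 (0.0515) no longer passed. ENSMUSG00000029333 had no GC value and was not tested. Of the 28 common genes 8 passed there, Retreg1 (adjusted p = 0.0448, edgeR) joining the other 7. On the mean of the 3 preparations, 4 of 24 mitosis genes were called with the curve removed in place of 10, 3 of 19 immediate early genes in place of 5 (Fos and Jun no longer passed) and 3 of 18 NF-kB genes in place of 5 (Nfkb2 and Relb no longer passed). Pclaf, Rora, Ddit4, Spred1, Btc, Idi1, Tie1, Cldn5, Lpl, Cav1, Aspn and Ifit2 also lost their calls, while Klf10, Klf11 and Klf2 were called on the mean in both fits. Of the regulators described above, Klf10 (46.9% GC) and Klf11 (48.9%) lie near the middle of the range and Klf2 (61.6%) and Csrnp1 (56.9%) near its top.

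**Figure D5:**
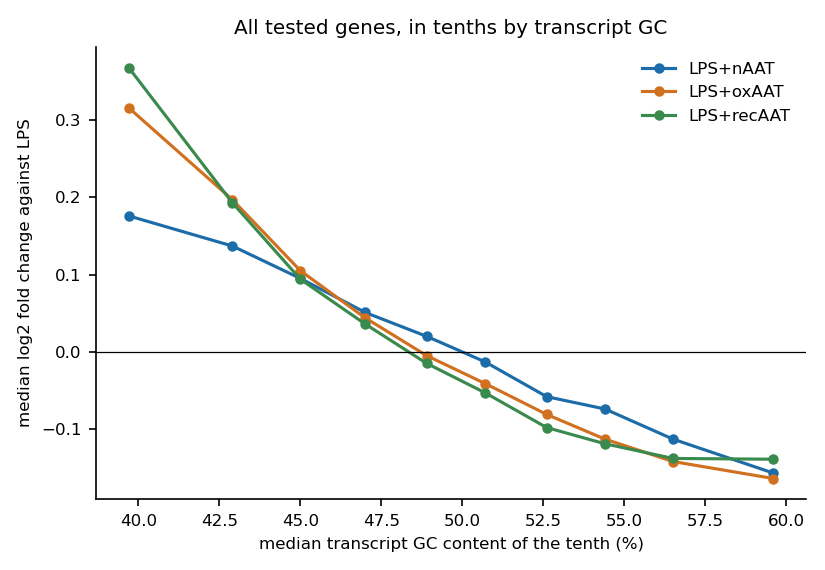
Median log2 fold change against LPS of all tested genes in 10 bins by transcript GC content (horizontal axis, median percent of the bin) for LPS+nAAT, LPS+oxAAT and LPS+recAAT. All 3 lines slope downward and cross 0 near the middle bins, and recAAT spans the widest range, 0.368 at the low end and −0.139 at the high end.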

How the data were processed

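Lung RNA was sequenced from 23 mice as poly(A) libraries (TruSeq Stranded mRNA, 200 ng of RNA, per the labels' protocols). The authors deposited raw read counts per Ensembl gene with no normalization. The submitters' processing notes name the build GRCm38 (mm10), HTSeq 0.11.1, STAR 2.4.0.1, Trimmomatic (0.36 and 0.38) and FastQC 0.11.8. Whether reads were counted by strand, and with which annotation release, is not given here. Symbols, coordinates, GC content and overlaps were taken from GENCODE M21 and promoters from RefSeq.

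Counts were fitted with edgeR 4.0.16 in R 4.3.3 (TMM normalization, filterByExpr by group, robust quasi-likelihood test, Benjamini-Hochberg adjustment over all genes tested). All 23 libraries entered one model. The mean of the 3 preparations is the average of their group coefficients minus LPS. Another model used the 15 libraries of the first set, and another the 8 of the second. Common genes have an adjusted p under 0.05 and the same sign in all 3 comparisons. The common genes and first-set genes are named, except 1 gene that is not reported here, as are members of lists by size of change, and a few genes chosen after their values were seen. Members and gene lists were chosen with earlier results of these data known. Alternatives were DESeq2 1.42.0, limma-voom 3.58.1, other scalings, filters and thresholds, set as a term, removal of a lowess curve in GC content (added after seeing the data), a replicate block, and each library left out in turn. The fits were tested on simulated counts. No libraries of a group were near identical (lowest chi-square per gene 5.91 over 43 pairs).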

Additional observations from a re-analysis of the deposited data

Results flagged for a closer look

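Among 136 checks of 34 genes in 4 groups of 5 libraries, 8 found one library far from the other 4 of its group, where chance gives about 1 in 20. LPS+oxAAT library 5105 accounted for 4 of them: Csrnp1 at 30.2 CPM (other oxAAT libraries 17.1 to 19.9), Tmem252 at 37.5 CPM (16 to 21.7), Errfi1 at 153 CPM (92 to 105) and Rgs2 at 55.4 CPM (88.1 to 101). For the first 3 it was the oxAAT library nearest to the LPS libraries, and for Rgs2 it lay just under their range of 56.7 to 69.9 CPM. The others were Klf10 in LPS+oxAAT library 5103 (62.5 CPM, others 47.8 to 52.0), Retreg1 in LPS+nAAT library 4102 (63.7 CPM, others 71.6 to 73.7), Tmem252 in LPS+nAAT library 4103 (36.7 CPM, others 32.1 to 33.3) and Vapa in LPS library 1104 (82.9 CPM, others 101 to 108).

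Differences between preparations within a set passed the test for 6 genes, none of them among the 28 (edgeR's quasi-likelihood test, Benjamini-Hochberg adjustment). In the first set oxAAT was above nAAT for Meis1 (log2 difference 0.75, adjusted p = 0.00886) and below it for AA986860 (−0.77, 0.0187). In the second set recAAT was above oxAAT for Hgh1 (1.12, 0.0194) and Gadd45g (0.82, 0.0153), and below it for Igfbp3 (−0.76, 0.00459) and Nr1d1 (−1.38, 0.000805). Nr1d1 averaged 255 ± 48.7 CPM with LPS+nAAT, 260 ± 59.6 with LPS+oxAAT and 86.8 ± 13.8 with LPS+recAAT, against 171 ± 38.8 CPM with LPS (SD, n = 5 each).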

How the results depend on the processing

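Over the genes followed here no result that was called in either fit changed direction. They were the 28 common genes, the 23 first-set genes and up to 4 members of each of some lists. Genes named above but not followed included Fos, Rela, Zfp36l1, Areg, Spred1, Btc, Nr1d2, Rora, Ifit2 and Cxcl5. On the mean of the 3 preparations 2187 gene results kept their side of the threshold, 144 lost the call and 4 gained one, and in the first set 1359, 144 and 28. A change of sign in a gene called in neither fit was not counted. Counts of calls moved far more. The count of common genes ran from 4 to 61 over single libraries left out, with 9, 5, 45, 4 and 61 without LPS libraries 1101 to 1105, 18, 8, 7 and 17 without LPS+nAAT libraries 4101, 4103, 4104 and 4105, 12 and 16 without LPS+oxAAT libraries 5103 and 5104, and 12 without LPS+recAAT library 6104. Klf10 and Klf11 remained common without any one of the 20 libraries.

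The count on the mean of the 3 preparations ran from 410 (without LPS library 1104) to 2262 (without 1105), with 620 without 1101, 416 without 1102 and 2097 without LPS+oxAAT library 5102. LPS+nAAT calls ran from 20 (without 1104) to 144 (without 1105), with 42, 30, 32, 27 and 62 without 1101, 1102, 4103, 4104 and 6104. LPS+oxAAT calls ran from 167 (without 5103) to 1881 (without 5102), with 388, 234, 305, 1552, 342 and 416 without 1101, 1102, 1104, 1105, 5104 and 5105. LPS+recAAT calls ran from 865 (without 1104) to 2316 (without 1105), with 963 and 923 without 1101 and 1102. In the first set the mean ran from 11 (without 5102) to 45 (without 1105), with 15, 14, 14 and 13 without 1102, 1103, 1104 and 5101. LPS+nAAT there ran from 7 (without 4105) to 111 (without 1105), with 15, 13, 53, 12, 22, 15 and 8 without 1101, 1102, 1103, 1104, 4102, 4103 and 4104, and LPS+oxAAT from 2 (without 5102) to 24 (without 1105). OxAAT against nAAT ran from 0 (without 5102) to 7 (without 5101), with 5 and 1 without 4101 and 4104, and recAAT against oxAAT from 1 (without 5103 or 5104) to 9 (without 6102), with 2 without 5105. Where one LPS+oxAAT library was left in the first set, it was assumed to vary like the other groups.

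At an adjusted p under 0.01 the counts were 334 for the mean, 9, 154 and 573 for nAAT, oxAAT and recAAT, 3 common, and in the first set 10, 5 and 6 for the mean, nAAT and oxAAT. With no filter on low counts nAAT gave 50, common 14 and first-set nAAT 69. DESeq2 gave 429 for nAAT, 1255 for oxAAT and 113 common (27 of them among the 28), 92, 413 and 48 in the first set, 48 for oxAAT against nAAT and 45 for recAAT against oxAAT. Limma-voom gave 40 for nAAT, 1688 for oxAAT, 13 common (10 of the 28) and 57 for first-set nAAT. With set as a term the counts were 9 for the mean, 196, 6 and 0 for nAAT, oxAAT and recAAT, and 0 common. For recAAT that 0 stood beside 1261 genes at an unadjusted p under 0.05 and 18 called by DESeq2. Removing the GC curve gave 420, 254 and 671 for the mean, oxAAT and recAAT and 13 common (10 of the 28). Fitting the first set without air gave 17 for nAAT, weighting its 7 AAT libraries equally gave 8 for the mean, and 4 genes were common within it. The cause of these shifts was not tested.

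Whether the last digits of the library numbers pair libraries is not stated and cannot be told from their correlations. Deviations of 30 same-digit pairs correlated at −0.22 to 0.35 (median 0.05), and 120 other pairs had a median of −0.04. Of 20 libraries, 6 were closest to their own digit. With the digit as a replicate block nAAT gave 248, common 86 (27 of the 28), first-set mean, nAAT and oxAAT 15, 13 and 4, oxAAT against nAAT 0 and recAAT against oxAAT 78. Precision is limited by the number of libraries, with 5 LPS libraries shared by every comparison and 2 LPS+oxAAT libraries in the first set.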
